A study of Mus musculus with 8 samples.

Results

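The mitosis and spindle genes described here are 41 genes whose products carry a cell from the end of G2 through chromosome segregation to cytokinesis. The rule lists them by symbol and applies no measured value. A gene was measured by the probe sets that the platform annotation gives its symbol alone, and its brightest probe set, by the mean over all arrays, stands for it. Of the 41 genes, 40 had such a probe set, with 92 probe sets in all out of the 45101 on the array. Ccnb1, which encodes cyclin B1, had none and has no value here. The dimmest 40% of the array's probe sets did not enter the test, which kept 80 of the 92 and the brightest one of all 40 genes, among 27022 probe sets for 12069 named genes.

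The tissue was the atrioventricular canal of the embryonic mouse heart, where endocardial cushions give rise to the valves. There were 8 arrays, each from a pool of 10 microdissected canals, and all animals had a mixed C57BL6/129 background. The 4 control pools carried Gata4flox/flox alleles, and the 4 mutant pools (Gata4T2del) carried Gata4flox/flox with the T2Cre+ transgene, a Cre that the study used to delete Gata4 in endothelium and the cushion mesenchyme derived from it, not in the muscle of the canal. Controls were not labelled as carrying Cre, and for embryo age the sources used here give no value.

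Cells entering mitosis build up cyclins A and B, which activate the kinase Cdk1. A spindle of microtubules then attaches to kinetochores, protein assemblies on the centromeres, while a checkpoint holds back the anaphase-promoting complex until every chromosome is attached. Most transcripts of this programme are abundant only in dividing cells, so in a tissue their level follows the share of cells in G2 and mitosis as well as the level per cell. These were bulk pools, in which fewer cells of a type and less RNA per cell cannot be told apart.

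In these canals the mitotic genes were well expressed: 37 of the 40 brightest probe sets were above background on all 8 arrays. Over all named genes tested, it was 7755 of 12069. An array's background was the 90th percentile of its 27 probe sets for bacterial RNA. The 3 exceptions were Foxm1, Kif2c and Espl1. Cardiomyocyte markers, which define the muscle of the canal, were above background on all arrays for 12 of 12 genes, and cushion mesenchyme markers for 10 of 10. Controls 2 and 3 stood apart, with bacterial control medians of 158 and 135 against 4.0 to 39.3 on the other arrays, and limma's array weights gave them 0.302 and 0.35 against 0.867 to 2.8. Without these controls the change of the brightest probe set moved by more than its SE for Cdk1, Ccnb2, Cenpa, Kif2c, Racgap1 and Cdc20, and those values are given beside the results.

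After quantile normalization, mutant and control canals had similar levels of mitotic transcripts. Of the 40 genes, 0 passed an adjusted p of 0.05 in the limma fit over all probe sets, where 0.0663% of all genes passed on their brightest probe set (of all probe sets, 0.0259% passed as higher and 0.0185% as lower). On the log2(signal + 16) scale, 20 members had positive and 20 negative changes, with a median of -0.01, against a median of 0.02 and 53.2% positive changes over all genes. At an unadjusted p of 0.05, 2 members were higher and 1 was lower, where 7.31% of all genes were higher and 5.61% lower, 12.9% in all. Mutant and control arrays did not overlap for 2 of the 40, against 8.16% of all genes. Both shares lay below those of all genes by few genes, a difference that was not tested. Without controls 2 and 3, 0 members passed after adjustment (0.0166% of all genes), 2 were higher and 0 lower at the unadjusted threshold (8.14% of all genes in either direction), and the median was -0.03.

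The 95% intervals show how large a difference these arrays leave room for. For 27 of the 40 genes the whole interval lay within 0.5 of 0 on the log2 scale, which is a 1.41-fold change in either direction, against 35.7% of all genes. Brightness set this precision. Of 26 member probe sets with a mean log2 signal of 10 or above, 25 had such an interval, of 34 between 8 and 10 it was 10, and of 20 under 8 it was 0. Among all genes of the brightest class the share was 86.1%, so the narrow intervals were not particular to mitotic genes.

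**Figure D1:**
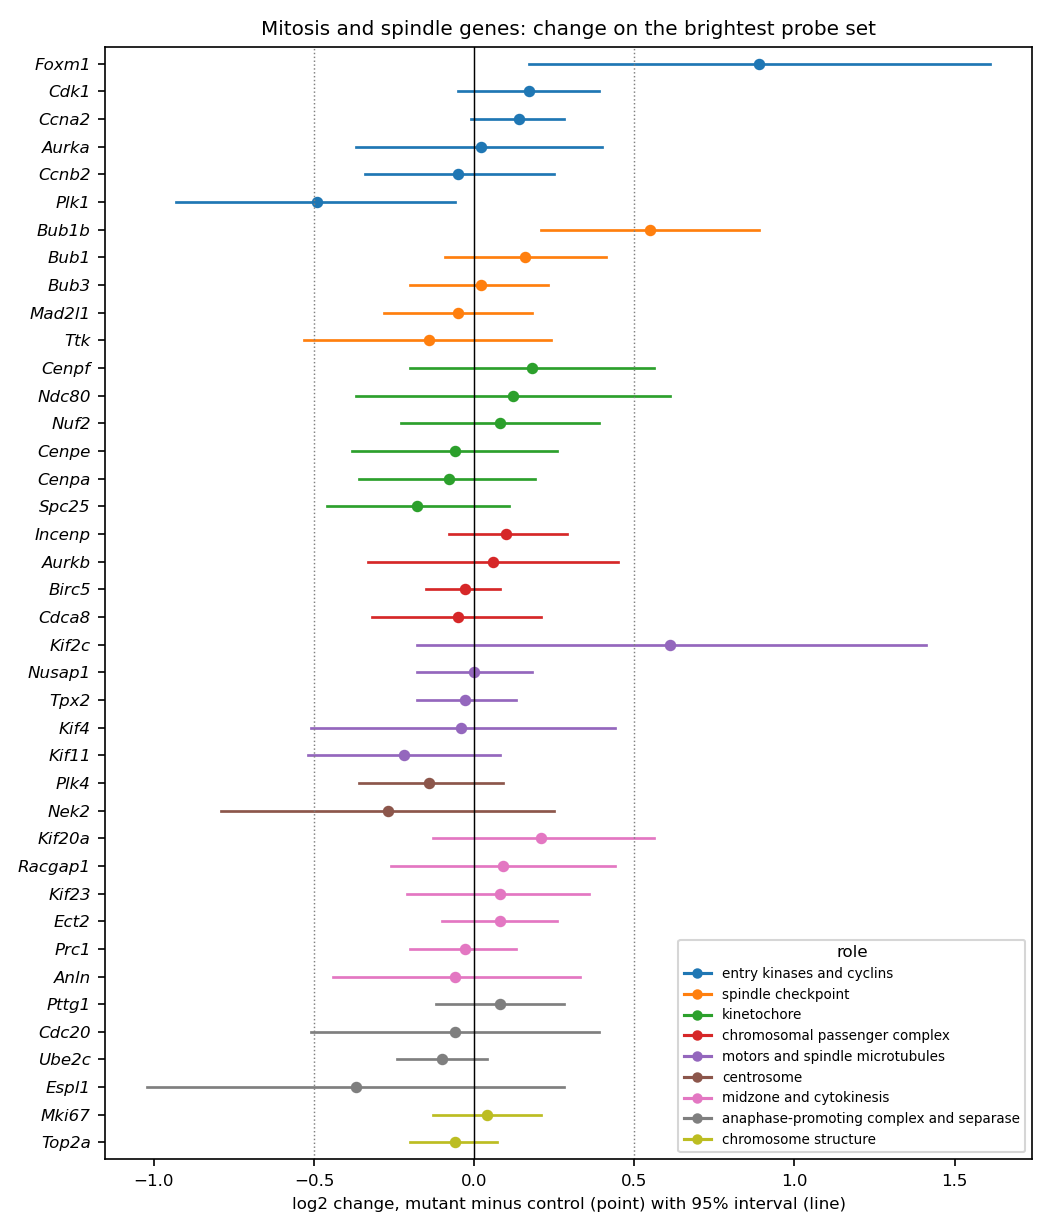
Log2 change in the mutant canals (point) with its 95% interval (line) for the brightest probe set of the 40 measured members, coloured by role; dotted lines mark 0.5 on either side of 0. Most intervals cross 0, and only those of Foxm1, Bub1b and Plk1 do not.

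The choice of scaling bore on the direction. The values above were quantile normalized. With the deposited scaling kept, 0 members passed, and the members' median lay 0.08 above that of all genes in place of 0.03 below it. When arrays were instead centred on their medians, the median change of all genes was 1.33, 17322 probe sets were called higher and 1832 lower against 7 and 5 in the quantile normalized fit, and 37 members were called higher and 0 lower. Relative to all genes, the members' median was then 0.33. In the deposited values, controls 2 and 3 had the 2 highest medians, 268 and 254, against 71.5 to 125 on the rest. The sign of the group as a whole is thus not fixed by these data.

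The mitotic genes share promoter elements that the rule did not use. Many genes of late G2 and mitosis carry a cell cycle genes homology region, an element with the letters TTTGAA that is bound by the MuvB complex, and upstream of it CCAAT boxes bound by NF-Y. RefSeq promoter windows of GRCm38.p6, from 250 bases before to 50 after a start, were at hand for 35 of the 41 members (38 windows), Ccnb1 included. Both strands were searched, so that TTCAAA counted as well. The element was found in 73.7% of the members' windows and in 17.9% of the 32851 windows in the table. CCAAT was found in 76.3% against 37.4%, and both motifs in 65.8% against 6.95%. A base shared by matches to both motifs counts for both, and a match is a description, not a binding site. The letters TTTAAA, also searched, were found in 26.3% of the members' windows and in 13.2% of all windows.

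The nearest TTTGAA lay within 50 bases of the start in 25 of the 28 windows that held it, before the start in 12 and after it in 16. The windows end 50 bases after the start, so the 16 after it lay that near by construction. Those farther away were at -167 in Bub3, -103 in Kif2c and -98 in Mki67. These positions depend on the annotated start, which matched that of the RefSeq gene table in 19 of the 38 windows. For Bub3, which has more than 1 window, the same element lay at -43 or at -167. Spacing was taken for the closest pair in a window of any TTTGAA and a CCAAT upstream of it. Their centres were a median of 31.5 bases apart (quartiles 24.5 and 38.5, 25 windows). That TTTGAA need not be the one nearest the start. Taking the closest pair favours short distances, and spacing was not measured outside the members' windows, so the median has no comparison. The following 8 stretches are the 100 bases up to the start of members in which both motifs lie wholly within those 100 bases. They are written in the direction of the gene from 5′ to 3′, with TTTGAA and CCAAT of either strand in capitals.
Cdk1, chr10:69352913-69353012, minus strand: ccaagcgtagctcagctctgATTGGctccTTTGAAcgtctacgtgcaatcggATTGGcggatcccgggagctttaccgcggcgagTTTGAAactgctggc
Top2a, chr11:99024190-99024289, minus strand: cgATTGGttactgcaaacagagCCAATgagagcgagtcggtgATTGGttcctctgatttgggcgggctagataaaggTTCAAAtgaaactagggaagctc
Ube2c, chr2:164769829-164769928, plus strand: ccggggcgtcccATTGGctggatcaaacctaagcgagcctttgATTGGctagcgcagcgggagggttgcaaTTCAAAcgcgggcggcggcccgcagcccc
Cdc20, chr4:118437344-118437443, minus strand: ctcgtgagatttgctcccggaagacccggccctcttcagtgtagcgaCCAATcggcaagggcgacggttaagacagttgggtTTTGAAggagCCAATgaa
Kif11, chr19:37376282-37376381, plus strand: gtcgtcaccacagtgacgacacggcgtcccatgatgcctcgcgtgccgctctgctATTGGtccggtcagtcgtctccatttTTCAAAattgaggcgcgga
Espl1, chr15:102296193-102296292, plus strand: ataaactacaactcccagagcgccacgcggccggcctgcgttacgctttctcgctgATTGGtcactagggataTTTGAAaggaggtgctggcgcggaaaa
Bub3, chr7:131560270-131560369, plus strand: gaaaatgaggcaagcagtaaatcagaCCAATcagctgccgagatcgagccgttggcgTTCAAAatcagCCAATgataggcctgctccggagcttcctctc
Prc1, chr7:80294376-80294475, plus strand: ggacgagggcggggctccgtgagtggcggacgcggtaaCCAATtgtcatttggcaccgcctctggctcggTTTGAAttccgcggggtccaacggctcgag
In each stretch a CCAAT box, written ATTGG where it lies on the other strand, stands to the left of the homology element nearest the start. Cdc20 and Bub3 carry a further CCAAT box to the right of their element, which in Bub3 lies in the middle of the stretch, at position -43. Cdk1 carries 2 homology elements and Top2a 3 CCAAT boxes in this stretch. In Plk1 and Bub1b, whose brightest probe sets did not overlap between groups, TTTGAA lay after the start, at positions 31 and 41. It did so in 16 of the 28 windows that held it, and a link to the arrays was not tested.

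Genes of neighbouring stages differed in these letters. In the windows of DNA replication genes, TTTGAA was found in 16% and both motifs in 6.0%, and in those of G1 cyclins, kinases and CDK inhibitors in 19.4% and 9.68%. For E2F-type letters (TTTCGCGC or TTTGGCGC, both strands) the order was turned around, with 22.0% of replication windows and 19.4% of G1 windows but 2.63% of the members' windows, against 0.813% of all windows. Other mitotic genes, a list of 104 symbols without the members, lay between, with TTTGAA in 33.7%.

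**Figure D2:**
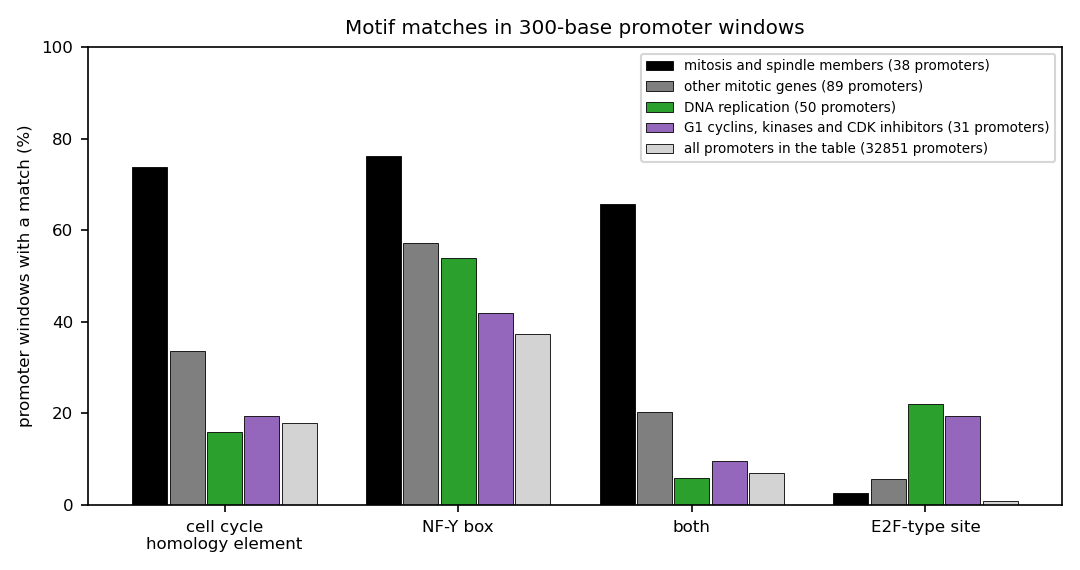
Share of 300-base promoter windows with a match to the homology element, the NF-Y box, both, or an E2F-type site, for the members, 3 related gene lists and all windows in the RefSeq table. The members stand highest for the homology element (73.7%) and for both motifs (65.8%), and low for the E2F-type site (2.63%).

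Among the cyclins and kinases that drive entry into mitosis, Cdk1 and cyclin A2 stood near their control level. Cdk1, the kinase of mitotic entry, measured 11.35, 10.86, 11.06 and 11.50 on the log2 scale in controls 1 to 4 and 11.37, 11.47, 11.52 and 11.50 in mutants 1 to 4. The mutant values sat together at the upper end of the controls, and only controls 2 and 3 lay clearly below them. The change was 0.17 (SE 0.10, adjusted p = 0.50), and 0.04 without controls 2 and 3. Ccna2, which encodes cyclin A2, changed by 0.14 (SE 0.07, adjusted p = 0.412) on its brighter and by -0.08 (SE 0.11) on its other probe set, so its probe sets pointed in opposite directions. Ccnb2, which encodes cyclin B2, changed by -0.05 (SE 0.14), or -0.20 without controls 2 and 3, and Aurka, the centrosomal Aurora kinase, by 0.02 (SE 0.18).

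Plk1, a kinase needed for centrosome maturation, spindle assembly and cytokinesis, was the member with the most negative change. Its log2 values were 8.73, 9.0, 8.87 and 8.51 in the controls and 8.25, 8.21, 8.12 and 8.30 in the mutants. All 4 mutant arrays lay below all 4 controls, and controls 2 and 3, with raised background, had the highest values. The change was -0.49 (SE 0.21, 95% interval -0.93 to -0.06), a fold of 0.71, with an unadjusted limma p of 0.0276 and an adjusted p of 0.355, which ranged from 0.121 to 0.78 over the alternatives tried. Without controls 2 and 3 it was -0.46. Plk1 has 1 probe set, so no other probe set checks it.

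Foxm1, the forkhead factor that activates many genes of this programme, had the most positive change, on a dim probe set. Its log2 values were 6.88, 6.32, 6.30 and 7.85 in the controls and 7.63, 8.09, 7.91 and 8.07 in the mutants. Only 2 control arrays but all 4 mutant arrays exceeded background, and control 4 lay among the mutants. The change was 0.89 (SE 0.34, unadjusted p = 0.0179, adjusted p = 0.331 in limma), and 0.62 (unadjusted p = 0.0952) without controls 2 and 3. Without control 4 it was 1.46 and passed (adjusted p = 0.0398), in a fit that called 1339 probe sets higher and 380 lower over the whole array. Over the alternatives the adjusted p ran up to 0.793, and down to 3.21e-07 with median-centred arrays, which shifted most genes alike. The next probe set changed by 0.36 (SE 0.57), and by -0.27 without controls 2 and 3. The remaining 2 were left out as dim.

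Among the spindle checkpoint genes was the member with the smallest p value on its brightest probe set. Bub1b encodes BubR1, which inhibits Cdc20 until chromosomes are attached. On its brightest probe set the log2 values were 9.56, 9.46, 9.37 and 9.98 in the controls and 10.08, 10.38, 10.02 and 10.40 in the mutants. The groups did not overlap, though control 4 came within 0.1 of mutants 1 and 3. The change was 0.55 (SE 0.16, 95% interval 0.21 to 0.89, unadjusted p = 0.00345, adjusted p = 0.244), 0.49 without controls 2 and 3, and 0.75 with an adjusted p of 0.038 without control 4, in the same fit with 1339 higher and 380 lower calls. Over the alternatives the adjusted p ran up to 0.71, and down to 6.76e-12 with median-centred arrays, which shifted most genes alike. A Bub1b probe set of nearly the same brightness did not move with it. There the values were 9.76, 9.66, 9.94 and 9.75 in the controls and 9.62, 9.78, 9.58 and 9.63 in the mutants, a change of -0.14 (SE 0.14), so that the direction of Bub1b depended on the probe set. The last, left out as dim, had 5.09, 4.75, 4.67 and 7.33 in the controls and 6.34, 7.45, 7.06 and 7.42 in the mutants, with 1 control and 3 mutant arrays above background.

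The other checkpoint genes had changes of smaller size on their brightest probe sets. Bub1, the kinase that recruits checkpoint proteins to kinetochores, changed by 0.16 (SE 0.12), its partner Bub3 by 0.02 (SE 0.10), and Mad2l1, the Mad2 protein that binds Cdc20, by -0.05 (SE 0.11). Ttk, the Mps1 kinase that starts the signal, changed by -0.14 (SE 0.18) on 1 probe set and by 0.41 (SE 0.21) on the other, neither past the threshold. Of the 5 Bub3 probe sets, the 3 dim ones ranged from -0.83 to 0.45, while the 2 bright ones stood at 0.02 and -0.18.

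The kinetochore genes had 3 positive and 3 negative changes on their brightest probe sets, between -0.18 and 0.18. Cenpa, the histone H3 variant that marks centromeres, changed by -0.08 (SE 0.13) on the probe set that stands for it, whose values were 11.01, 10.35, 11.16 and 11.19 in the controls and 10.79, 10.71, 10.90 and 11.11 in the mutants. Its next probe set, above background on all 8 arrays, went from 9.26, 9.68, 9.71 and 9.67 in the controls to 8.06, 9.07, 8.73 and 8.87 in the mutants. There the groups did not overlap. The change of -0.78 (SE 0.22, unadjusted p = 0.00262) did not pass in the limma fit (adjusted p = 0.240), and it was -0.87 without controls 2 and 3. The dimmest probe set changed by -0.83 (SE 0.40). Without controls 2 and 3 the brightest changed by -0.23 (unadjusted p = 0.107) and the dimmest by -1.20. All 3 Cenpa probe sets thus had a negative change, of unequal size.

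Among the other kinetochore genes, Spc25 and its partners Ndc80 and Nuf2, subunits of the complex that holds microtubule ends, changed by -0.18 (SE 0.14), 0.12 (SE 0.23) and 0.08 (SE 0.15). Spc25 had 10.58, 10.36, 10.48 and 10.62 in the controls and 10.09, 10.34, 10.33 and 10.59 in the mutants, with 1 mutant array among the controls and 3 below them, and changed by -0.28 without controls 2 and 3. The kinetochore motor Cenpe changed by -0.06 (SE 0.15), and the large coiled-coil protein Cenpf by 0.18 (SE 0.18), with 8.94, 9.07, 8.47 and 9.04 in the controls and 9.30, 9.08, 9.02 and 9.11 in the mutants. Its other probe sets changed by 0.01 and -0.72 (SE 0.38). None of these passed.

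The chromosomal passenger complex, which corrects faulty attachments and later directs cytokinesis, stayed near its control level: the changes of its 4 genes lay between -0.05 and 0.10, and all 4 intervals lay within 0.5 of 0. Birc5, survivin, had 13.16, 13.15, 13.18 and 13.22 in the controls and 13.06, 13.12, 13.13 and 13.22 in the mutants. The change was -0.03 (SE 0.05), a fold of 0.976 with a 95% interval of 0.902 to 1.06. The kinase Aurkb changed by 0.06 (SE 0.18), the scaffold Incenp by 0.10 (SE 0.09) and borealin, Cdca8, by -0.05 (SE 0.12). Without controls 2 and 3 Incenp changed by 0.19 (unadjusted p = 0.0415, adjusted p = 0.656).

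The proliferation markers proper were near their control level with narrow intervals. Mki67, which encodes the Ki-67 antigen, had 11.53, 11.45, 11.58 and 11.60 in the controls and 11.51, 11.59, 11.60 and 11.62 in the mutants, a fold of 1.03 (95% interval 0.916 to 1.16). Top2a, the topoisomerase that untangles sister chromatids, had 12.55, 12.62, 12.67 and 12.59 in the controls and 12.49, 12.69, 12.50 and 12.51 in the mutants, a fold of 0.958 (0.873 to 1.05). The groups overlapped for both genes. The Top2a interval is the narrower.

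**Figure D3:**
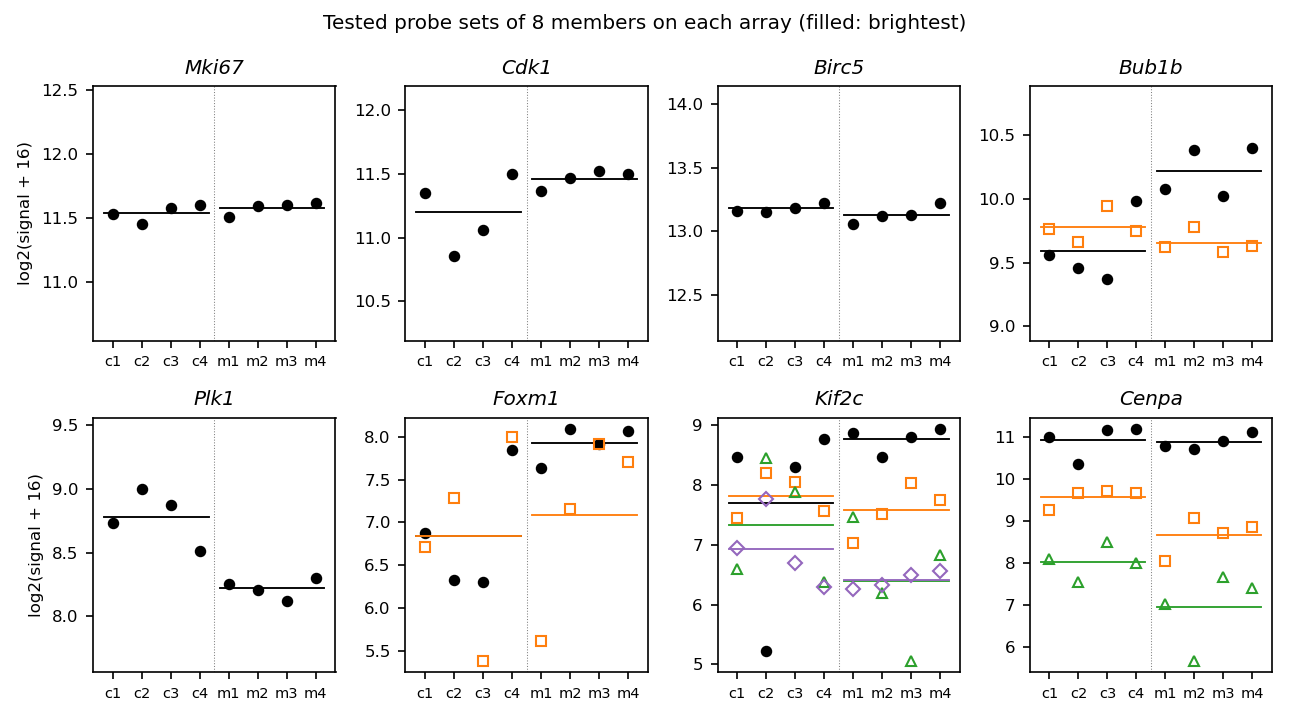
Log2(signal + 16) of the tested probe sets of 8 members on controls 1 to 4 (c1 to c4) and mutants 1 to 4 (m1 to m4), with group means as lines; filled circles are the brightest probe set, open symbols the others. Mki67, Cdk1 and Birc5 overlap between groups, Plk1 lies lower on all mutant arrays, the Bub1b probe sets differ in sign, and those of Cenpa differ in size.

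Of the spindle motors and microtubule proteins, Kif11, the motor that pushes spindle poles apart, was the only one with the same sign on 3 probe sets. Its brightest had 10.23, 10.60, 10.65 and 10.66 in the controls and 10.26, 9.81, 10.27 and 10.31 in the mutants. Controls 2, 3 and 4 lay above all mutants, and control 1 lay among them. The changes were -0.22 (SE 0.14), -0.16 (SE 0.18) and -0.20 (SE 0.20), and -0.30, -0.31 and -0.29 without controls 2 and 3, none past the threshold. Kif2c, a motor that takes microtubules apart at kinetochores, had 8.46, 5.22, 8.29 and 8.77 in the controls and 8.87, 8.47, 8.79 and 8.93 in the mutants. Control 2 alone stood far below the rest. The change of 0.61 (SE 0.37) was 0.17 without controls 2 and 3, and the other 3 Kif2c probe sets changed by 0.06, -0.68 and -0.35. The chromosome-bound motor Kif4 changed by -0.04 (SE 0.23), or -0.26 without controls 2 and 3, the spindle assembly factor Tpx2 by -0.03 (SE 0.08) and the microtubule bundler Nusap1 by 0.00 (SE 0.09).

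Both centrosome genes had negative changes on their brightest probe sets. Plk4, the kinase that starts centriole duplication, changed by -0.14 (SE 0.11), and Nek2, which separates centrosomes, by -0.27 (SE 0.25). Nek2 had 8.03, 8.46, 8.53 and 7.83 in the controls and 7.58, 7.90, 7.84 and 7.84 in the mutants, so that control 4 lay among the mutants. Their other probe sets disagreed in sign, with -0.25 and 0.25 for Plk4 and 0.17 for Nek2.

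Among the genes of the spindle midzone and cytokinesis, 4 had positive and 2 negative changes, between -0.06 and 0.21. Kif20a, a motor of the midzone, had 9.73, 8.78, 9.76 and 9.78 in the controls and 9.70, 9.81, 9.90 and 9.92 in the mutants. Control 2 stood apart from 3 nearly equal controls. The change was 0.21 (SE 0.16), and 0.08 without controls 2 and 3. The centralspindlin subunits Kif23 and Racgap1 changed by 0.08 (SE 0.13) and 0.09 (SE 0.17, or -0.10 without controls 2 and 3), the exchange factor Ect2 that they recruit by 0.08 (SE 0.09), the bundling protein Prc1 by -0.03 (SE 0.08) and anillin, Anln, by -0.06 (SE 0.18). On the brightest probe set of each, none came near the threshold.

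Of the genes of the anaphase-promoting complex and its targets, Ube2c, its ubiquitin-conjugating enzyme, had 12.29, 12.11, 12.22 and 12.22 in the controls and 12.15, 12.14, 12.12 and 12.16 in the mutants. The mutants fell in a narrow band within the lower part of the control range, a change of -0.10 (SE 0.07). Pttg1, securin, changed by 0.08 (SE 0.09), and Espl1, separase, which securin inhibits, by -0.37 (SE 0.31), with values of 7.81, 7.34, 8.77 and 7.18 in the controls and 7.32, 7.63, 7.28 and 7.25 in the mutants. Controls 1 and 3 lay above all mutants and controls 2 and 4 among or below them, and the change was -0.34 without control 3 and -0.15 without controls 2 and 3. Cdc20, the activator that the checkpoint restrains, changed by -0.06 on both brighter probe sets (SE 0.21 and 0.16), which became -0.36 and 0.02 without controls 2 and 3, and by 1.59 (SE 0.48, unadjusted p = 0.00408, adjusted p = 0.245) on a dim one that was above background on 1 of 4 control arrays.

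The spread of changes among probe sets was larger for dim ones. Of 26 members with 2 or more tested probe sets, 12 had the same sign on all of them and 14 did not, bright probe sets such as those of Ccna2 among them. Member probe sets with a mean of 10 or above ranged from -0.22 to 0.17, those between 8 and 10 from -0.78 to 0.61 and those under 8 from -0.83 to 1.59, with median SEs of 0.10, 0.20 and 0.42. Over all 80, 4 were higher and 2 lower at an unadjusted p of 0.05, where 12.6% of all probe sets passed in either direction, and 0 passed after adjustment (0.0444% of all probe sets). Among the 4 higher were dim probe sets of Cdc20 and Cdca8, with control means of 6.1 and 6.19 and mutant means of 7.81 and 8.02. The filter used the mean over all arrays, so their high mutant values helped them enter the test. Of the 8 member probe sets with a change of 0.5 or more, controls 2 and 3 were the lowest 2 of the 8 arrays on all 8, against 51.1% of all probe sets with such a change. Of the 5 with -0.5 or less, controls 2 and 3 were the highest 2 on 2, against 47.1%. Leaving out the lowest controls lowers such changes by construction, so the values without them are a description. For the probe sets that stand for their gene they were 0.49 for Bub1b, 0.62 for Foxm1 and 0.17 for Kif2c, in place of 0.55, 0.89 and 0.61. For the other 5 they were 1.07 for Cdc20, 0.51 for Cdca8, 0.31 for Anln, 0.22 for Top2a and 0.04 for Kif23, in place of 1.59, 1.22, 0.50, 0.79 and 0.78.

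**Figure D4:**
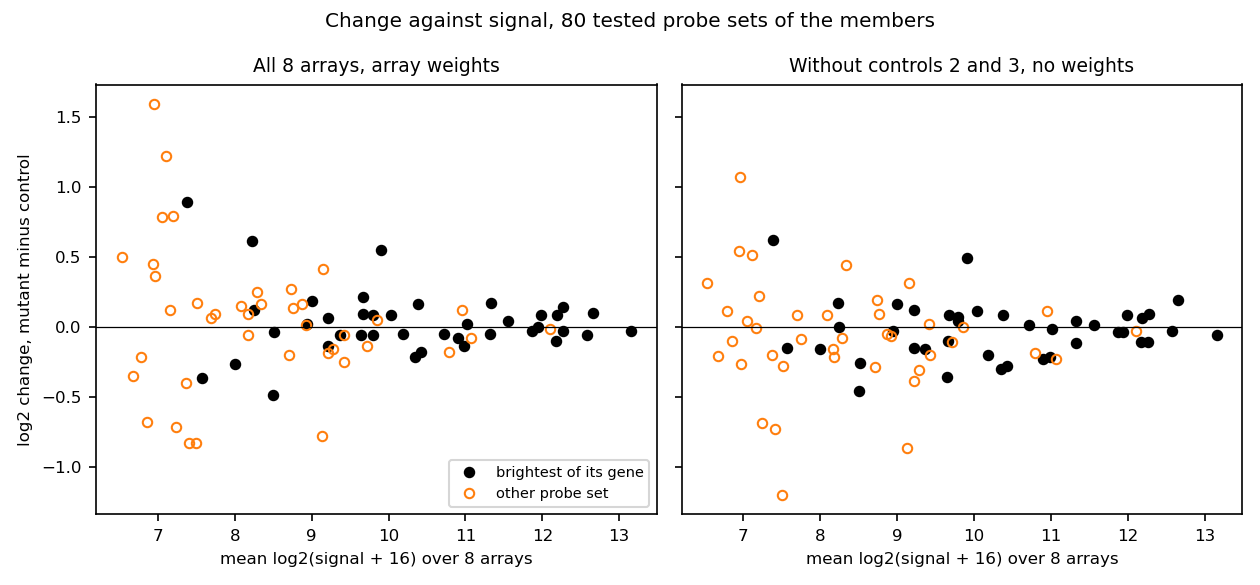
Log2 change against mean log2 signal for the 80 tested probe sets of the members, with all 8 arrays (left) and without controls 2 and 3 (right). Changes lie between -0.22 and 0.17 at a mean of 10 or above and reach from -0.83 to 1.59 under 8.

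Array by array, the members moved little as a group. The median deviation of the 40 genes from their own mean over all arrays was 0.03, -0.03, 0.02 and 0.07 in controls 1 to 4 and -0.01, -0.02, 0.04 and 0.10 in mutants 1 to 4. The groups overlapped in part, with mutant 4 above every control and control 2 below every mutant. The median SD of a member was 0.20 over the controls and 0.14 over the mutants, against 0.37 and 0.21 over all genes.

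Other cell cycle lists also had median changes near 0. Of 96 other mitotic genes tested, 55 had positive and 41 negative changes, with a median of 0.05, and 0 passed. At an unadjusted p of 0.05, 8 were higher and 3 lower, where 7.31% of all genes were higher and 5.61% lower. The smallest p values were those of Cenpi and Cenpp, components of the inner kinetochore, with 0.82 (SE 0.22) and 0.33 (SE 0.10), of the kinetochore protein Knstrn with 0.50 (SE 0.17) and of the tubulin Tubb5 with -0.15 (SE 0.06). Other probe sets of Cenpp changed by -0.04 and -0.43 and that of Tubb5 by 0.03, while the other 4 of Knstrn all had positive changes, from 0.16 to 0.31. Of 48 DNA replication genes, 33 had positive changes (median 0.06), where 53.2% of all genes had one. In that list 1 gene, Rfc2 of the clamp loader, passed as higher (1.27, SE 0.21, adjusted p = 0.0274), though not without controls 2 and 3 (1.18, adjusted p = 0.112). Its other probe sets changed by 0.68 (unadjusted p = 0.00753) and 0.29. Of 29 genes of G1 control, 14 had positive and 15 negative changes (median 0.00), and 0 passed. Ccnd1, which encodes cyclin D1, had the smallest p there, with -0.28 (SE 0.10, adjusted p = 0.284) on its brightest probe set and -0.07 and 0.54 on the others. Without controls 2 and 3 the medians of the 3 lists were 0.01, 0.01 and -0.01.

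The markers of the cell types in or near the canal had larger changes in some lists. Each marker is counted here by its brightest probe set. Of 10 cushion mesenchyme markers, 9 had negative changes (median -0.57). Of 12 cardiomyocyte markers 11 had positive ones (median 0.12), and of 7 epicardial markers (8 listed) 7 (median 0.64). On the brightest probe sets, 0 passed the threshold in these 3 lists. For the cushion marker Hapln1 that probe set changed by -0.16 (SE 0.06). Its other tested probe sets changed by -0.9 (SE 0.12), -0.9 (SE 0.15) and -0.51 (SE 0.25). The one with an SE of 0.12 ranked ahead of the Rfc2 probe set that passed in the same fit, so it passed as lower. At an unadjusted p of 0.05, 6 of the 10 cushion markers were lower, and 7 of the 12 cardiomyocyte and 7 of the 7 epicardial markers were higher, against 12.9% of all genes in either direction. The median deviation of the cushion markers was 0.23, 0.27, 0.03 and 0.42 in the controls and -0.51, -0.13, -0.01 and -0.45 in the mutants, without overlap, while that of the mitotic members overlapped. Of 10 endothelial markers, 6 had positive changes (median 0.31), and 1, the receptor gene Tek, passed as lower (-0.72). Of 9 erythroid markers, 8 had negative changes (median -0.20) with 0 past the threshold. Few markers of macrophages and blood (3 of 8), neural crest and neurons (5 of 8) or foregut and liver (3 of 8) passed the filter on dim probe sets, and their medians were -0.13, -0.36 and -0.72. The part of these markers in the level of mitotic transcripts was not tested.

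**Figure D5:**
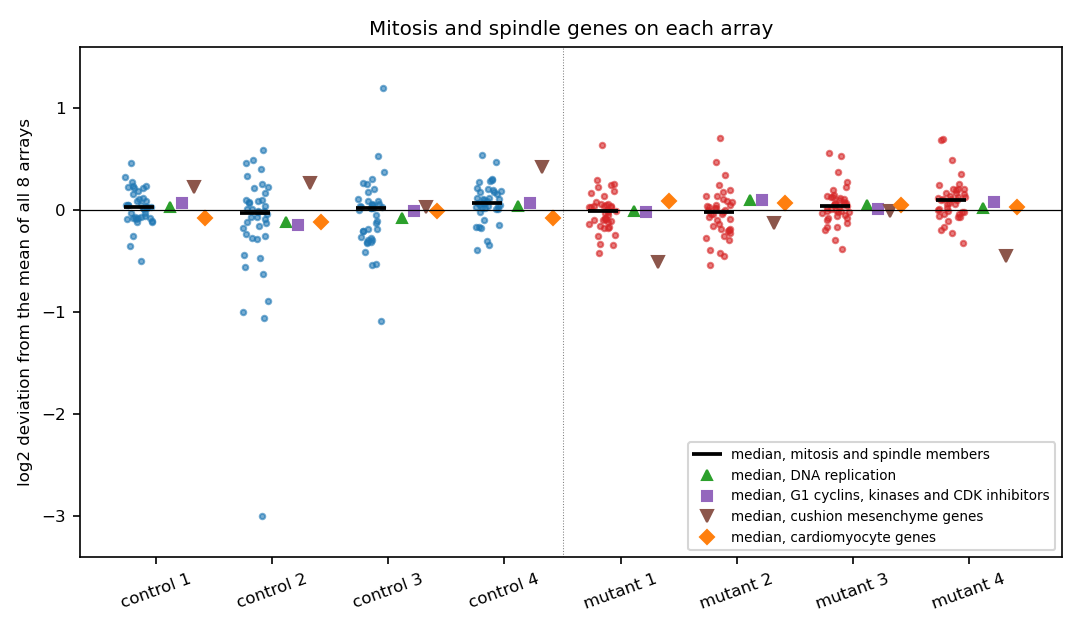
Log2 deviation of each of the 40 members from its mean over all 8 arrays (points, with the median as a bar), and the medians of 4 other gene lists (symbols). The bars lie between -0.03 and 0.10, controls 2 and 3 hold the widest point clouds, and the cushion mesenchyme medians are above 0 on the controls and below 0 on the mutants.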

How the data were processed

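Expression was measured on 8 Affymetrix mouse arrays, 1 for each pool of 10 canals, from 50 ng of total RNA amplified by the NuGen Ovation protocol, per the labels. The deposited values are linear signal intensities made by the authors with MAS5, per the submitters' processing notes, with no version or detection call given in the sources used here. Every array had the same mean signal, 715, and the medians ran from 71.5 to 268. According to the submitters, 2 controls were dropped as too noisy, with no names given, and all 4 were kept here.

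Intensities were taken as log2(signal + 16), so changes of dim genes are understated, and quantile normalized. Array controls (64) and the lowest 40% of probe sets were left out. Of the probe sets, 34958 had 1 symbol in the platform annotation, 932 several and 9211 none, and only the first kind was named. Of these, 34741 were matched by Entrez ID to the RefSeq gene table.

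Groups were compared with limma 3.58.1 in R 4.3.3 (arrayWeights, eBayes with trend and robust, two-sided, Benjamini-Hochberg over 27022 probe sets, threshold 0.05), and the fit was tested on simulated data. Changes are weighted, group means are not, so the 2 can differ in size or sign. Lists were described by counts and medians, with no set test. The number of arrays limits the precision, and p-values measure the spread between these pools. Values in every sample were given for the 5 largest changes in each direction among members above background on at least 2 arrays of each group, for members with an unadjusted p under 0.05, and for further members chosen after their values were seen. Up to 4 genes of each cell cycle list with the smallest p were named, and from the marker lists fewer were printed than the rule allowed. The members, the lists and the tests were chosen with earlier results of these data known. The motifs were chosen after the arrays were analysed. Promoter windows were searched in Python 3.11.15.

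The replicate numbers shared by the groups were not used as pairs in the main fit. Deviations from the group means correlated by -0.11, 0.01, -0.13 and 0.17 for numbers 1 to 4. Such low values do not settle whether the samples were paired. Alternatives covered scaling, pseudocount, filter, weights, the 2 noisy controls, a replicate block, RNA integrity, the probe set rule and each array left out.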

Additional observations from a re-analysis of the deposited data

Results flagged for a closer look

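For the 40 measured members and the members' median, each in controls and in mutants, 6 of 82 sets of 4 arrays had 1 array far from the other 3, where chance marks about 1 in 20. Kif11 was at 10.23 on control 1, against 10.60 to 10.66 on the other controls, and at 9.81 on mutant 2, against 10.26 to 10.31. Kif2c was at 5.22 on control 2 against 8.29 to 8.77, and Kif20a at 8.78 on the same array against 9.73 to 9.78. Plk4 was at 10.78 on control 3 against 11.10 to 11.17. Top2a was at 12.69 on mutant 2 against 12.49 to 12.51. Of these, 3 lay on controls 2 and 3, the arrays with raised background.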

How the results depend on the processing

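In 20 alternatives, 0 members passed in either direction except with each array centred on its median (37 higher, 0 lower) and without control 4 (2 higher, Bub1b and Foxm1). The members' median minus that of all genes was -0.03, and it was 0.08 with the deposited scaling, 0.33 with median-centred arrays and -0.06 to 0.01 with 1 array left out. Calls over the whole array came to 7 higher and 5 lower, against 41 and 22 with the deposited scaling, 17322 and 1832 with median-centred arrays, 22 and 12 with a pseudocount of 64, 14 and 12 with no filter, 6 and 10 with no array weights, 1 and 1 without controls 2 and 3 (with or without weights), and 2 and 2 with the 3 prime to 5 prime ratio as a covariate. With the replicate block they were 26 and 34, and the block called 0 members. Leaving out 1 array gave 1425 to 3 higher and 380 to 2 lower, with 1425 and 269 without control 1, 1339 and 380 without control 4, 92 and 21 without control 3, and 15 and 39 without mutant 3. Of the 10 members with the largest changes, 3 changed sign: Spc25 was at 0.23 relative to all genes with median-centred arrays, and with the mean over all probe sets of a gene Kif2c was at -0.09 and Cenpf at -0.19. Foxm1 had no value with the lowest 60% left out. The cause of these shifts was not tested. Signal near background limits the dim probe sets.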
